A study of Mus musculus with 6 samples.

Results

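The heat shock chaperones of the cytosol and of mitochondria were compared between 2T3 cells kept for 3 days in simulated microgravity and 2T3 cells kept for 3 days in static culture. The members are the heat shock proteins of the HSP70, HSP110, HSP90 and small families, the mitochondrial chaperones, the J-proteins, the co-chaperones and the heat shock factors, 39 gene symbols in all. Every symbol was kept whatever its value, though the list was chosen with earlier results of these data known. The platform's probe table assigned 87 of the 45037 probe sets to 37 of these genes. Probe sets of Hsf1 and Hsp90ab1 were not analysed here. A probe set is a group of short array probes that report on the same transcript, and 81 of the 87, with at least 1 for every one of the 37 genes, were bright enough to be tested.

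2T3 is a cloned mouse pre-osteoblast line, established from the calvaria with a viral T antigen under the promoter of a bone morphogenetic protein gene, so all samples come from 1 transformed clone. The rotated samples, 3 in number, came from a rotating wall vessel, in which cells or carriers are kept in free fall through fluid by turning the vessel, a ground-based stand-in for microgravity. The 3 static samples were kept for the same 3 days without that rotation. Both groups carry the same passage range and the same instrument in their labels, and no drug or genetic change is named for either. Samples were grouped by title, although another label describes static 2 and static 3 as simulated microgravity too. The titles name the rotated samples only by the letter R, read here as rotated. Nothing in the labels says whether the 3 samples of a group were separate cultures, so every p-value below reflects sample-to-sample spread that could be purely technical.

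Chaperones of the HSP70 family bind exposed stretches of unfolded proteins and release them in a cycle driven by ATP. J-proteins (HSP40) start that cycle by bringing the client and triggering ATP hydrolysis, and nucleotide exchange factors, the HSP110 proteins among them, end it. HSP90 takes over partly folded clients, many of them kinases and steroid receptors, with a set of co-chaperones, while small heat shock proteins hold unfolded proteins in a soluble state without ATP. In mitochondria the HSP60 and HSP10 proteins form a closed folding chamber for imported proteins. Much of this network is induced by heat shock factor 1, which binds repeats of the letters GAA in alternating orientation, the heat shock element. In bone, small heat shock proteins and HSP70 chaperones have been studied in osteoblasts exposed to heat and mechanical load.

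The deposited median intensity was 70.0 to 88.8 on the rotated arrays and 71.2 and 75.7 on static 2 and static 3, while static 1 stood apart at 130.1, with a 10th percentile of 22.1 against 4.5 to 7.2 on the other arrays. The arrays were quantile normalised on a log2 scale before testing. The markers of the labelled cell type, 9 osteoblast and mesenchymal genes such as Col1a2 and Sparc, all lay above the threshold for dim probe sets. The more osteoblast-specific ones were dim: over all arrays Alpl read 34.7 to 103.6, Sp7 113.8 to 421.9 and Pth1r 17.4 to 370.4. Epcam (62.8 to 326.6) and Tubb3 (113.7 to 448.5), markers of other cell types, read in a similar range. The summed intensity of the 9 markers, mostly from collagens, Sparc and Cdh11, was 69512 to 85784 in the rotated samples and 90459 to 101516 in the static samples. Of 12 markers of macrophages, endothelium, epithelium, fat, muscle and neurons, 4 lay above that threshold (Cd68, Csf1r, Epcam and Tubb3), with a summed intensity over all 12 of 724 to 935 in the rotated samples and 925 to 1378 in the static samples. The ratio of 3' to 5' signal of the actin controls, which rises where RNA or its labelling is incomplete, was 3.21 in rotated 1, 1.57 and 1.48 in the other rotated samples, and 1.29 to 1.37 in the static samples. Rotated 1 was the highest of the rotated arrays for 19 of the 37 chaperone genes. The same count was not made over all tested genes, so it is not shown to be particular to the chaperones. The part of the marker sums in the chaperone results was not tested. Values without rotated 1 are given beside many of the results.

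The question was which chaperone transcripts differ between simulated microgravity and static culture. The genes with an unadjusted p under 0.05 at their brightest probe set, all higher in the rotated samples, were the HSP70 and HSP110 genes Hspa1a, Hsph1 and Hspa4l, the small heat shock protein genes Hspb1 and Hspb8, the mitochondrial Hspe1 and the HSP90 activators Ahsa1 and Ahsa2. Hspa1b had a difference as large as some of these (0.84 ± 0.41) with a wider error. Among the J-proteins, the HSP70 adaptors and Hsf2, 0 genes had an unadjusted p under 0.05 in limma at their brightest probe set. No probe set of any chaperone passed the test: at an adjusted p under 0.05 in limma, 0 of 81 were called, as were 0 of all 27022 tested probe sets (0%), and the smallest adjusted p among the chaperones was 0.487. All differences below are therefore measured values, none of them a call, and a p that misses the threshold does not show that a gene was the same in both groups.

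In value, 61 of the 81 were higher in the rotated samples and 20 lower, where 52.6% of all tested probe sets were higher. At an unadjusted p under 0.05, 20 of the 81 chaperone probe sets were higher in the rotated samples, and 4.34% of all tested probe sets were. In the lower direction there was 1 of 81, a second probe set of Dnajb6, where 3.9% of all tested probe sets were lower. With the replicate number as a block the counts were 28 higher, against 7.29% of all, and 4 lower, against 7.35% of all, and still 0 at an adjusted p under 0.05 in limma, where 2 of all tested probe sets passed (0.0074%), with a smallest adjusted p of 0.148 among the chaperones. On the normalised scale all 3 rotated values lay above all 3 static values in 20 probe sets, where the share of all tested probe sets was 7.83%, and below them in 0, where it was 7.27%. The deposited intensities grouped 4 chaperone probe sets otherwise. There the brightest of Dnaja2 and of St13 and the second of Hspe1 lay wholly above the static values, and a dim one of St13 wholly below. A fit that also held the actin ratio gave 12 probe sets at an unadjusted p under 0.05 in the higher direction, and 1.19% of all. Without rotated 1 the count was 17, and 1.87% of all.

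By gene, each represented by its brightest probe set, 28 of the 37 chaperones were higher and 9 lower in value, and 53.3% of all 12554 tested genes were higher. The median log2 difference, rotated minus static, was 0.28 over the chaperones and 0.032 over all tested genes. In 8 of the 37 the unadjusted p was under 0.05 with the rotated samples higher, where 4.49% of all genes were, and in 0 with them lower, where 3.74% were. With the replicate number as a block these counts were 13 higher, where 8.22% of all genes were, and 1 lower (Hspa2), where 6.75% were, the added genes being Hspa1b, Hspd1, Dnajb1, Dnaja1 and Dnaja2. On the normalised scale all rotated values lay above all static values in 9 genes, where they did in 8.3% of all genes, and below them in 0, where they did in 7.11%. A difference of at least 2-fold with the rotated samples higher was measured in 3 genes, Hspa1a, Hsph1 and Hspa4l, and in 1.61% of all genes. Differences ranged from -0.77 for Hspa2 to 1.56 for Hspa1a. Under median centring, which placed the median of all genes at 0.13, the chaperone median was 0.47. It was 0.19 without rotated 1, and 0.20 in the fit that held the actin ratio. In that fit the brightest probe sets of several leading genes stood lower, at 0.91 for Hsph1, 0.42 for Hspe1, 0.43 for Hspa1b, 0.35 for Ahsa1, 0.21 for Ahsa2 and 0.20 for Dnajb1, all by over 1.5 times. Others moved less or rose: Hspa1a was 1.20, Hspa4l 1.02, Hspb8 0.77 and Hspb1 1.18, against 1.56, 1.06, 0.74 and 0.96 in the main fit. The actin ratio was higher in every rotated sample than in every static sample, so it cannot be fully told apart from the group.

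**Figure D1:**
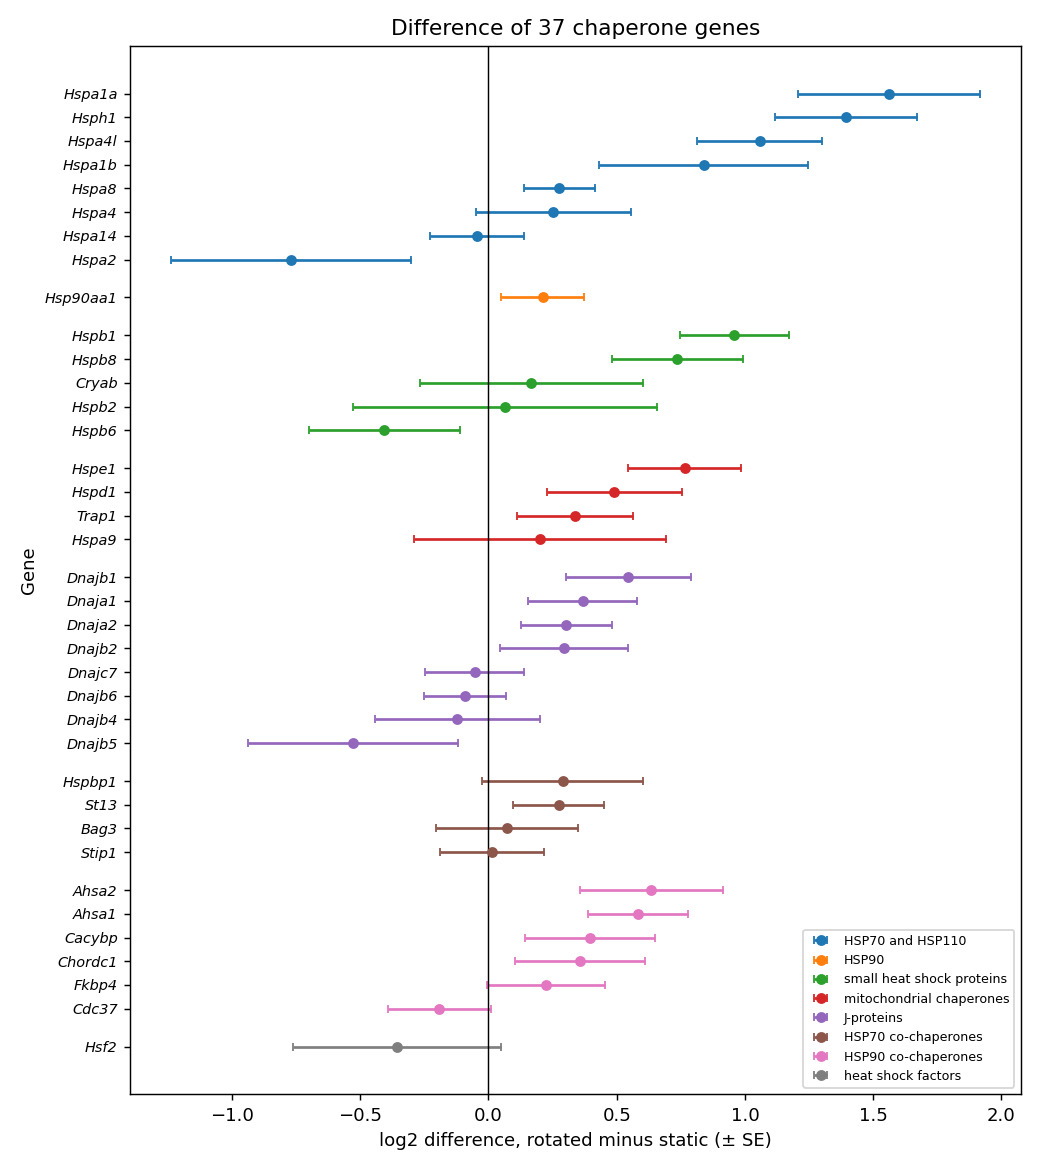
Log2 difference, rotated minus static, of the brightest probe set of each of 37 chaperone genes on the horizontal axis, by functional group down the page. Points are limma estimates from 3 arrays per group and bars are standard errors; Hspa1a, Hsph1 and Hspa4l lie above 1, while Hspa2, Dnajb5, Hspb6 and Hsf2 lie below -0.3.

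Promoter windows, from 250 bases before to 50 bases after an annotated gene start, were available from RefSeq (GRCm38.p6) for 31 of the chaperone genes, 43 windows in all. They were searched for the letters of the heat shock element as 2 units, GAANNTTC or TTCNNGAA, and as 3 units, where both of these patterns overlap by a shared GAA or TTC, with N for any base. Each 2-unit pattern reads the same on both strands, the 3-unit pattern that starts with GAA is the reverse complement of the one that starts with TTC, and every 3-unit match contains 2-unit matches. A 3-unit match was found in windows of 5 of the 31 chaperone genes (16.1%), Hspd1, Hspe1, Hsph1, Chordc1 and Dnajb6, and in windows of 0.662% of all genes in the table. Hspd1 and Hspe1 share the same site, since they lie head to head. A 2-unit match was found in windows of 15 of 31 chaperone genes (48.4%) and of 17% of all genes. A match describes the letters only, and binding was not measured here.

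The stretches below are shown for members whose differences were among the higher ones (Hsph1, Hspe1, Hspa1b and Hspb1), for Chordc1 and Dnajb6 as genes that have the 3-unit letters but overlapping groups, and for Hspa4l as one with a high value and no match in its window. Other genes with a 2-unit match, Hspb8 among them, are not printed. Capitals mark the matched letters, and each stretch reads 5' to 3' on the gene's own strand.
Hsph1, chr5:149636282-149636307, minus strand, just past its gene starts: ctgcagaTTCTGGAAAGTTCtcctca
Hspe1, chr1:55088048-55088147, plus strand, the 100 bases before the start: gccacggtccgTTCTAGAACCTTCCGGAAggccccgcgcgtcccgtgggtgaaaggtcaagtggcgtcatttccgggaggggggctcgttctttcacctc
Hspa1b, chr17:34959289-34959388, minus strand, 150 to 51 bases before the start: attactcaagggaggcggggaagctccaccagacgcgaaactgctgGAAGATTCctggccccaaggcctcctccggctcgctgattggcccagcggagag
Hspb1, chr5:135887769-135887868, plus strand, 150 to 51 bases before the start: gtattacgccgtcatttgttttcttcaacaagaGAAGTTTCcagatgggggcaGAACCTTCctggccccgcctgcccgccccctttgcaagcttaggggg
Chordc1, chr9:18292260-18292288, plus strand, across the start: ccgGAACGTTCGGGAAAATTCCTGAAgca
Dnajb6, chr5:29735798-29735897, plus strand, the 100 bases before the start: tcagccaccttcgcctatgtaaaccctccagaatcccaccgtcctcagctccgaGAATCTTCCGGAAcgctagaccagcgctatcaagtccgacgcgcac
Hspa4l, chr3:40745513-40745612, plus strand, the 100 bases before the start: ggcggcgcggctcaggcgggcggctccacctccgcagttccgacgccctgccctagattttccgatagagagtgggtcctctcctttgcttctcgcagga
The stretch of Hspa1b is found with 0 differing bases at chr17:34972207-34972306, minus strand, before the start of Hspa1a, and the full windows of these neighbouring genes differ at 4 of 300 bases.

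**Figure D2:**
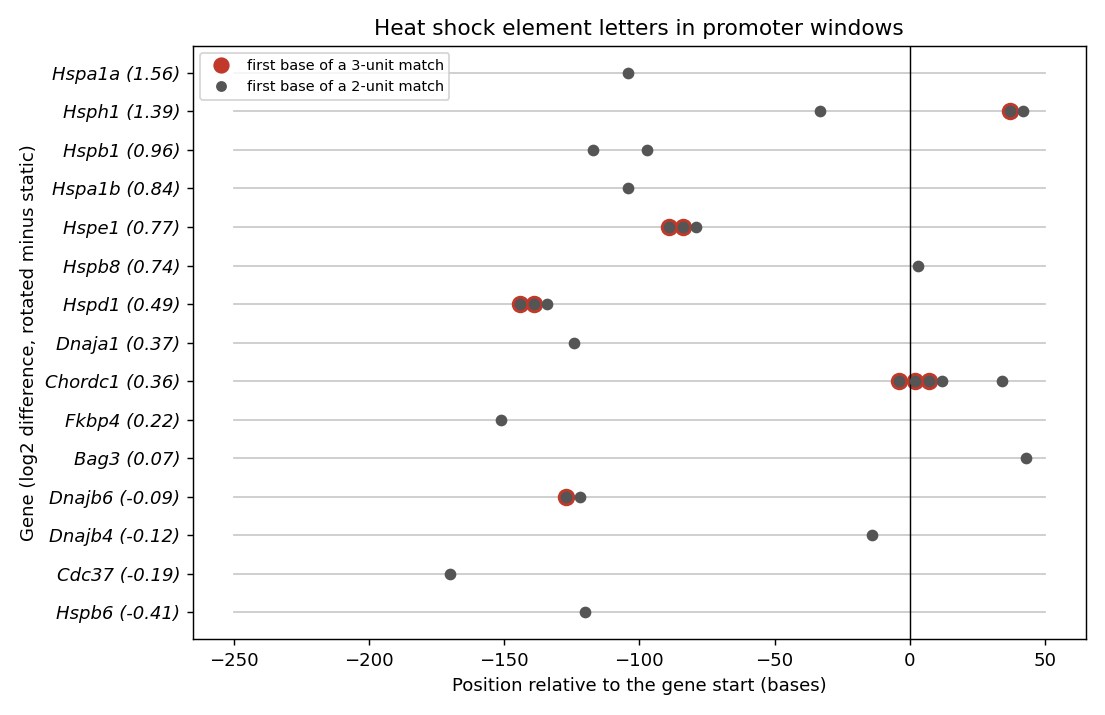
Position of the first base of each heat shock element match, in bases from the gene start, for the 15 chaperone genes with a match, ordered by log2 difference (in brackets, rotated minus static), with 1 gene start drawn per gene. Large red points are 3-unit matches and small grey points 2-unit matches; Hsph1 (1.39) and Dnajb6 (-0.09) both carry 3 units.

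The HSP70 and HSP110 genes held the highest values of the network in the main fit, and also the lowest, that of Hspa2. Without rotated 1, Hspa1a was still highest (1.33), but Hspb1 (1.11) stood above Hsph1 (1.08) and Hspa4l (1.05). Of the 8 genes, 6 were higher in value, with a median log2 difference of 0.56 (0.29 with the actin ratio in the fit, and 0.26 without rotated 1 and static 1). An unadjusted p under 0.05 was found for 3, where 4.49% of all genes were higher by that rule. Hspa1a and Hspa1b encode the heat-inducible HSP70 proteins, which are nearly the same in sequence. The intensity of Hspa1a was 819.7, 726 and 406.5 in the rotated samples, against 221, 283 and 160.4 in the static samples. Every rotated value lay above every static value, with a log2 difference of 1.56 ± 0.36 (SE, n = 3 per group), or 2.95-fold (adjusted p 0.529 in limma). For Hspa1b the brightest probe set read 13289.5, 9963 and 4471 in the rotated samples, against 2817, 7823 and 3752 in the static samples. Here the groups overlapped, because static 2 exceeded rotated 3, and the difference was 0.84 ± 0.41 (adjusted p 0.610 in limma).

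The other Hspa1b probe sets stood at 0.52 ± 0.22 and 0.56 ± 0.30, also with overlapping groups. In all 3 Hspa1b probe sets each rotated sample exceeded the static sample of the same number. Because the transcripts of Hspa1a and Hspa1b are near copies, the signals of their probe sets cannot be assigned to 1 gene with certainty. Without rotated 1 the differences were 1.33 for Hspa1a and 0.56 for the brightest Hspa1b probe set.

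Hsph1 and Hspa4l encode HSP110 proteins, which exchange the nucleotide of HSP70 and keep aggregates soluble. Hsph1, whose 3-unit stretch is printed above, had intensities of 5420.5, 2940.0 and 2371 in the rotated samples, against 1268, 1161 and 1246 in the static samples. The static values lay within a narrow band and all rotated values stood above it, rotated 1 highest. The difference was 1.39 ± 0.28, or 2.63-fold, with an adjusted p of 0.487 in limma, and 1.08 without rotated 1. Its second probe set read 1254, 2051 and 1666 in the rotated samples, against 906, 1123 and 997 in the static samples, again without overlap, and differed by 0.70 ± 0.23.

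Hspa4l is represented by 5 probe sets, and in each of them all rotated values lay above all static values. The brightest gave 1589, 2084 and 1276 in the rotated samples, against 831, 701 and 798 in the static samples. This is 2.08-fold, 1.06 ± 0.24 on the log2 scale (adjusted p 0.536 in limma), and rotated 2, not rotated 1, was the highest array. The others differed by 1.72 ± 0.36, 1.41 ± 0.31, 1.02 ± 0.29 and 0.76 ± 0.25. Over all alternatives the brightest ranged from 0.88 to 1.25, and without rotated 1 it was 1.05. No other chaperone had as many tested probe sets that all separated the groups.

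Hspa4, the third HSP110 gene, gave a less even picture. Its brightest probe set read 3612, 1733 and 2529 in the rotated samples, against 2708, 1824 and 1715.5 in the static samples, with overlap and a difference of 0.25 ± 0.30, which was -0.00086 without rotated 1. A second probe set read 1694, 1672 and 1308 in the rotated samples, against 909, 1001 and 835 in the static samples, with every rotated value above the static ones and a difference of 0.76 ± 0.22. The third stood at 0.31 ± 0.25.

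Hspa8 encodes the constitutive HSP70 of the cytosol. The brightest of its 4 probe sets read 43191, 26777.5 and 23701 in the rotated samples, against 21852, 21895 and 19065.5 in the static samples. All rotated values were above the static ones, yet by little, with a difference of 0.28 ± 0.14 (adjusted p 0.610 in limma) and 0.19 without rotated 1. Of the other probe sets, 2 were bright and near their error (0.051 ± 0.14 and 0.35 ± 0.35). A far dimmer one read 526, 365 and 242 in the rotated samples, against 58.6, 204 and 109 in the static samples, separated the groups and differed by 1.75 ± 0.53. The bright probe sets carry the suffixes _x_at and _a_at, of which the first marks probes that can also match other transcripts.

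Hspa14, a ribosome-associated HSP70, stood at -0.045 ± 0.18, and its second probe set at 0.48 ± 0.53. Hspa2, an HSP70 best known from male germ cells, had the most negative value of the network. It read 118.5, 408 and 429 in the rotated samples, against 358, 673 and 527 in the static samples, so the groups overlapped while each rotated sample lay below the static sample of the same number. The difference was -0.77 ± 0.47, and -0.21 without rotated 1, the lowest array.

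**Figure D3:**
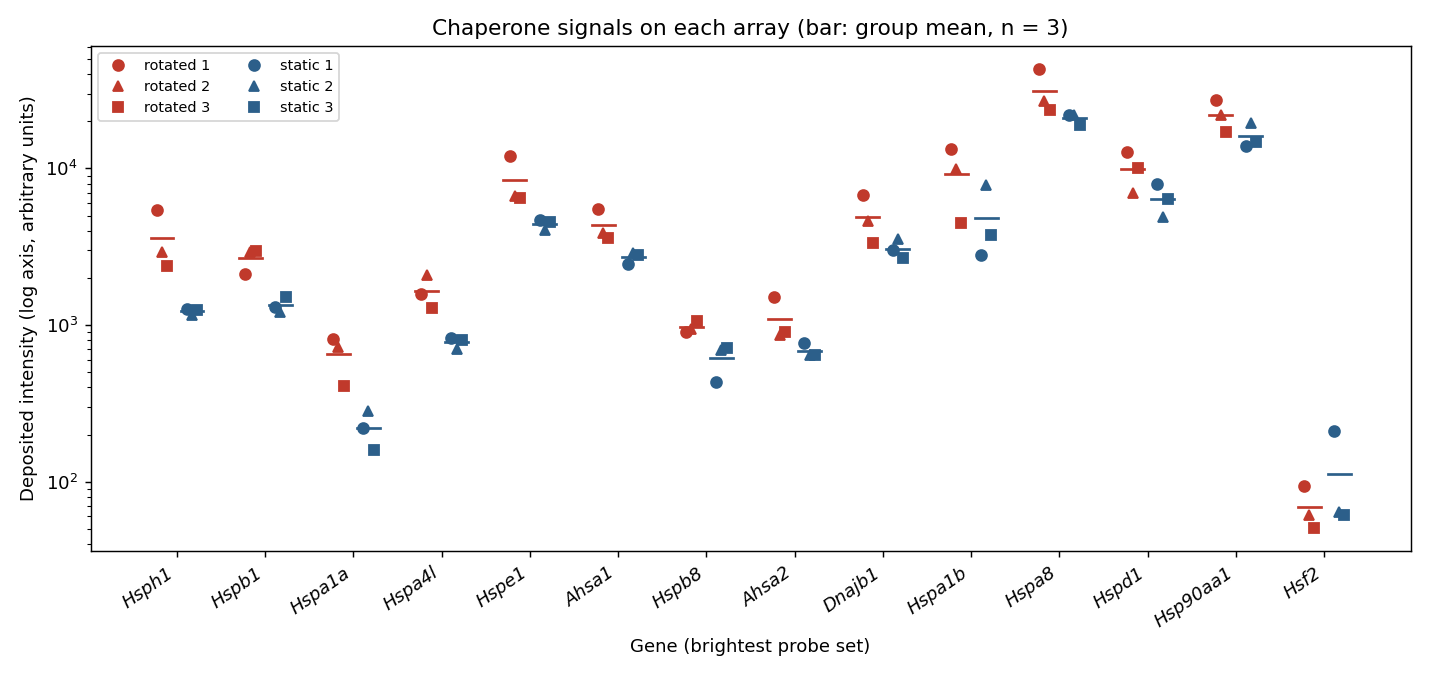
Deposited intensity (log axis, arbitrary units) of the brightest probe set of 14 chaperone genes on each array, rotated samples in red left of static samples in blue, with bars at the group means of 3 arrays. The rotated points of Hsph1, Hspb1, Hspa1a, Hspa4l and Hspe1 all lie above the static points, and those of Dnajb1, Hspa1b, Hspd1, Hsp90aa1 and Hsf2 overlap them; levels are not comparable between genes.

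Among the small heat shock proteins, Hspb1 and Hspb8 were higher in value and Hspb2, Hspb6 and Cryab were not separated. The 5 genes had a median difference of 0.17, with 2 at an unadjusted p under 0.05 in the higher direction, where 4.49% of all genes were. This median was not stable: it was 0.43 without rotated 1, 0.65 with the actin ratio in the fit and -0.18 without rotated 1 and static 1. Hspb1 encodes HSP25, the mouse counterpart of human HSP27, which binds unfolded proteins and actin filaments. Its intensity was 2128, 2930.1 and 2957 in the rotated samples, against 1307, 1208 and 1514.5 in the static samples, every rotated value above the static ones. The difference was 0.96 ± 0.21, or 1.94-fold (adjusted p 0.505 in limma), and the second probe set gave 1.13 ± 0.27. Rotated 1 was the lowest of the rotated arrays here, and without it the difference was 1.11.

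Hspb8 acts with Bag3 in the selective removal of misfolded proteins by autophagy. It read 904, 937 and 1067 in the rotated samples, against 433, 689 and 716 in the static samples, without overlap, and differed by 0.74 ± 0.26 (adjusted p 0.593 in limma). A second probe set also separated the groups (0.86 ± 0.29), whereas the third stood at 0.081 ± 0.29. Its partner Bag3, itself a heat-inducible gene, had 822, 972 and 638 in the rotated samples, against 585, 918 and 884 in the static samples. These groups overlapped almost fully, at 0.073 ± 0.28.

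Cryab encodes alpha B-crystallin, and its probe sets disagreed. The brighter read 1485.5, 2129 and 1161.5 in the rotated samples, against 749, 2819.7 and 1247.5 in the static samples, with static 2 the highest array, and stood at 0.17 ± 0.43. The other read 205, 1089 and 669.5 in the rotated samples, against 837, 2101 and 944 in the static samples and stood at -1.08 ± 0.54, with each rotated sample below the static sample of the same number, and at -0.48 without rotated 1. The muscle-enriched small heat shock protein genes Hspb6 and Hspb2 stood at -0.41 ± 0.29 and 0.063 ± 0.59, and at -0.21 and 0.43 without rotated 1, with Hspb2 close to the threshold for dim probe sets.

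All 4 mitochondrial chaperone genes were higher in value, with a median of 0.41, and Hspe1 alone had an unadjusted p under 0.05, where 4.49% of all genes were higher by that rule. Hspe1 encodes HSP10, the lid of the folding chamber that HSP60, the product of Hspd1, forms. Hspe1 read 12004, 6689 and 6449 in the rotated samples, against 4666, 4041 and 4573 in the static samples. Its groups did not overlap, at 0.77 ± 0.22 or 1.70-fold (adjusted p 0.593 in limma), and 0.55 without rotated 1. The second probe set stood at 0.34 ± 0.22. Hspd1, which shares the promoter printed above with Hspe1, read 12671, 6929 and 10103 in the rotated samples, against 7937, 4919 and 6413 in the static samples. Rotated 2 lay within the static range, while each rotated sample exceeded the static sample of the same number, and the difference was 0.49 ± 0.26 (adjusted p 0.621 in limma, and 0.247 with the replicate block).

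Hspa9 encodes mortalin, the HSP70 that pulls proteins into mitochondria, and its signal differed more between replicate numbers than between the groups. It read 13069, 4684.5 and 11369.9 in the rotated samples, against 10912, 3497 and 9138 in the static samples, so that rotated 2 and static 2 were the lowest arrays. The difference was 0.20 ± 0.49, and -0.0086 without rotated 1, and the second probe set showed the same order at 0.14 ± 0.51. The other 3 tested probe sets ranged from -0.31 to 0.90. Trap1, the HSP90 of mitochondria, stood at 0.34 ± 0.22 and 0.29 ± 0.24 in its probe sets, with each rotated sample above the static sample of the same number in both.

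Averaged over the genes of a group on the log2 scale, the arrays were set against the mean of the 3 static arrays. Over all 37 genes the rotated samples stood at 0.41, 0.28 and 0.21, and the static samples at -0.044, 0.037 and 0.0068, so rotated 1 was highest and no rotated array reached down to the static ones. The HSP70 and HSP110 genes stood at 0.73, 0.64 and 0.34 in the rotated samples, against -0.048, 0.17 and -0.12 in the static samples. The HSP90 co-chaperones were at 0.60, 0.14 and 0.26 in the rotated samples, against 0.034, -0.032 and -0.0018 in the static samples. Small heat shock proteins departed from this order, with 0.013, 0.58 and 0.32 in the rotated samples, against -0.58, 0.35 and 0.22 in the static samples, so that rotated 1 and static 1 were the lowest of their groups. The mitochondrial chaperones followed the numbers 2 instead, at 0.73, 0.0028 and 0.61 in the rotated samples, against 0.33, -0.51 and 0.18 in the static samples. The J-proteins overlapped between the groups, with 0.26, 0.13 and -0.12 in the rotated samples, against 0.096, 0.047 and -0.14 in the static samples.

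**Figure D4:**
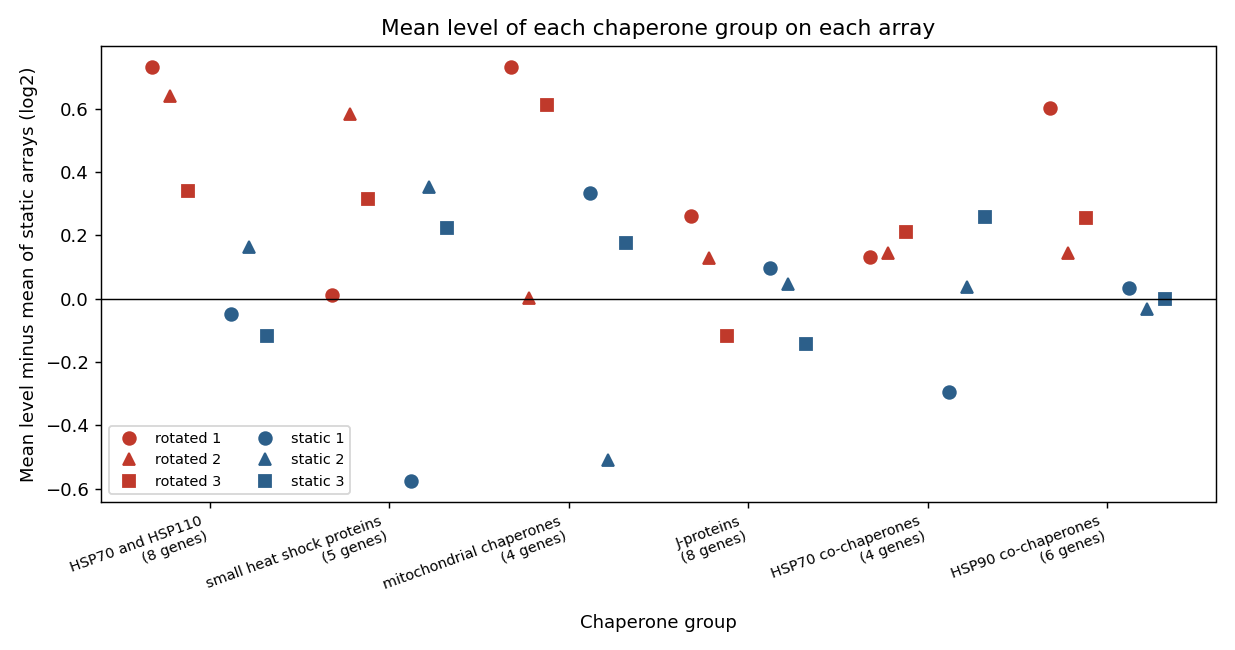
Mean log2 level of the genes of each chaperone group on each array, minus the mean of the 3 static arrays, with rotated arrays in red left of static arrays in blue and symbols for the replicate number. HSP70 and HSP110 genes stood at 0.73, 0.64 and 0.34 in the rotated samples, while mitochondrial chaperones stood at 0.0028 in rotated 2 and -0.51 in static 2.

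Hsp90aa1 encodes the inducible HSP90 of the cytosol. It was measured by 4 tested probe sets, all higher in value. The brightest read 27342, 21814 and 17119 in the rotated samples, against 13875, 19580.1 and 14792 in the static samples. Static 2 exceeded rotated 3, and the difference was 0.21 ± 0.16. The next stood at 0.17 ± 0.14. Another read 16845.5, 14566 and 10623 in the rotated samples, against 7791, 9266 and 9185 in the static samples, without overlap, at 0.51 ± 0.16, and its adjusted p was 0.593 in limma. The dimmest stood at 0.52 ± 0.48.

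The HSP90 co-chaperones were higher in value for 5 of 6 genes, with a median of 0.38, which was 0.17 without rotated 1 and 0.14 with the actin ratio in the fit. Ahsa1 and Ahsa2, which speed up the ATPase of HSP90, were the pair with an unadjusted p under 0.05, where 4.49% of all genes were higher by that rule. Ahsa1 read 5539, 3867 and 3597 in the rotated samples, against 2466, 2898 and 2781 in the static samples, without overlap, and differed by 0.58 ± 0.20 (adjusted p 0.593 in limma). Ahsa2 read 1507, 861.5 and 905 in the rotated samples, against 763, 644 and 640.0 in the static samples, also without overlap, at 0.63 ± 0.28. The value of Ahsa2 was 0.36 without rotated 1.

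Chordc1, a zinc-binding HSP90 partner with 3-unit letters at its start, read 4369.5, 2289 and 2675 in the rotated samples, against 2557, 2037.5 and 2173 in the static samples. The groups overlapped, at 0.36 ± 0.25, and at 0.10 without rotated 1. Cacybp stood at 0.40 ± 0.25, and at 0.12 without rotated 1, and the immunophilin gene Fkbp4 at 0.22 ± 0.23. The dim further probe sets of Fkbp4 stood at 0.59 ± 0.44 and -0.61 ± 0.57, and that of Ahsa1 at 0.20 ± 0.32. Cdc37, which hands kinases to HSP90, was the member lower in value, at -0.19 ± 0.20, and at -0.028 without rotated 1, with its dimmer probe set at -0.69 ± 0.37.

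All 4 adaptors and partners of HSP70 other than the J-proteins had small differences, from 0.015 to 0.29, with a median of 0.17, which was 0.039 without rotated 1 and static 1. Stip1, the adaptor HOP that joins HSP70 to HSP90, read 3719.6, 4371 and 5123 in the rotated samples, against 3548, 4189 and 4960.5 in the static samples. The samples of the same number were close to each other, and the difference was 0.015 ± 0.20. St13, the HSP70-interacting protein HIP, stood at 0.27 ± 0.18 and 0.36 ± 0.20 in its bright probe sets and at -0.41 ± 0.30 in a dim one. The nucleotide exchange factor gene Hspbp1 stood at 0.29 ± 0.32.

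The J-proteins were divided, 4 of 8 higher and 4 lower in value, with a median of 0.12 (0.064 with the actin ratio in the fit) and 0 at an unadjusted p under 0.05 in limma. With the replicate number as a block 3 of the 8 had such a p, Dnajb1, Dnaja1 and Dnaja2, all higher in the rotated samples, where 8.22% of all genes were. Dnajb1, the HSP40 induced by heat, read 6779.9, 4590.2 and 3324 in the rotated samples, against 3022, 3522 and 2664 in the static samples. The groups overlapped by rotated 3, at 0.55 ± 0.24 (adjusted p 0.606 in limma), and at 0.33 without rotated 1. Its other probe set read 1422, 1876 and 1943 in the rotated samples, against 1442, 2302 and 1903 in the static samples and stood at -0.094 ± 0.23, so the probe sets of this gene did not show the same difference.

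Dnaja1 and Dnaja2, the main type A partners of HSP70, were higher in value in every tested probe set. Dnaja1 ranged from 0.19 to 0.56 over 3 probe sets and Dnaja2 from 0.13 to 0.92 over 4. The brightest of Dnaja1 read 12757, 9988 and 6615 in the rotated samples, against 6336.5, 8277 and 5931 in the static samples, with static 2 above rotated 3, at 0.37 ± 0.21, and at 0.21 without rotated 1. The brightest of Dnaja2 stood at 0.30 ± 0.18, and at 0.18 without rotated 1. Dnajb2, a J-protein with ubiquitin-binding motifs, stood at 0.29 ± 0.25.

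In Dnajb4 and Dnajb5 every tested probe set was lower in value, from -0.47 to -0.068 and from -0.55 to -0.53. The brightest probe set of Dnajb5, with static 1 the highest array, stood at -0.093 without rotated 1 and static 1, and its other tested one at -0.60. Dnajc7, whose repeats bind HSP70 and HSP90, stood at -0.053 ± 0.19. Dnajb6, which suppresses protein aggregation, was lower in 3 of 4 probe sets. Its brightest read 7516.5, 6050.4 and 5983 in the rotated samples, against 6719, 6501.5 and 6297 in the static samples, nearly level at -0.09 ± 0.16, although its promoter holds the 3-unit letters. A second probe set read 779.5, 1375 and 1204 in the rotated samples, against 1192, 2168 and 1962 in the static samples and stood at -0.63 ± 0.28, and at -0.44 without rotated 1. This is the chaperone probe set with an unadjusted p under 0.05 in the lower direction.

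**Figure D5:**
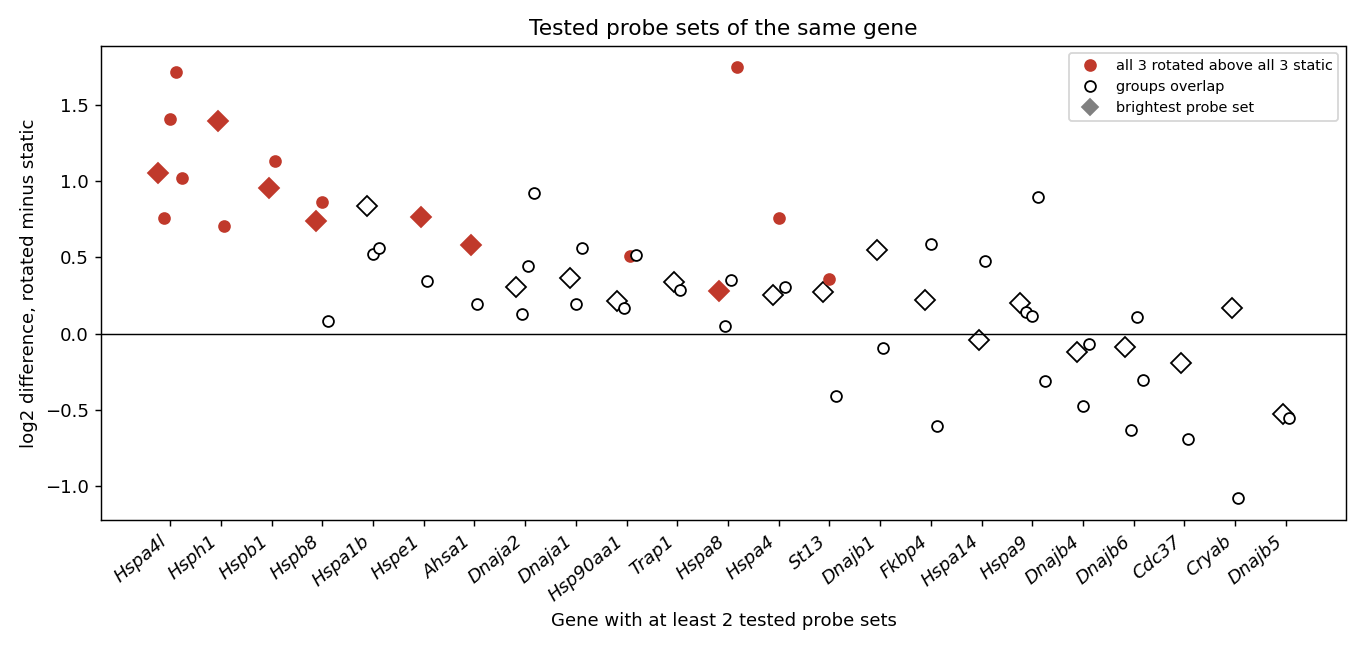
Log2 difference, rotated minus static, of every tested probe set of the 23 chaperone genes with at least 2, ordered by the median of the gene. Filled red symbols mark probe sets whose 3 rotated values all lie above the 3 static values on the normalised scale, and diamonds the brightest probe set. Hspa4l has 5 filled symbols, while Cryab and Dnajb1 have probe sets on both sides of 0.

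Across the 23 genes with at least 2 tested probe sets, all probe sets were higher in value in 13 genes, where 24.6% of the 6007 such genes on the array were, and all were lower in 3 (Cdc37, Dnajb4 and Dnajb5). The share of such genes on the array with all probe sets lower was not counted. In the remaining 7 chaperone genes the probe sets disagreed in sign.

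Of the heat shock factors, Hsf2, which takes part in development and modulates the response to heat, was measured near the threshold for dim probe sets. It read 94.5, 61.7 and 50.5 in the rotated samples, against 209.8, 64.4 and 61.4 in the static samples. Static 1 was the highest array, the groups overlapped, and the difference was -0.36 ± 0.40.

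Other genes of protein folding and stress were taken from lists drawn up by what the genes are known to do. Earlier results of these data were known when the lists were made, so the lists are not independent of the values. At an adjusted p under 0.05 in limma, 0 genes passed in any of them in either direction. The genes lie beside the chaperones as follows, with the median of all tested genes at 0.032. Several of these medians also moved: without rotated 1 that of the CCT subunits was 0.036, that of prefoldin 0.023, that of the endoplasmic reticulum chaperones 0.071 and that of the further heat and stress genes 0.32. Other J-proteins and exchange factors were higher for 17 of 20 tested genes (median 0.22), with 2 higher and 1 lower at an unadjusted p under 0.05, where 4.49% of all genes were higher and 3.74% lower. Counts of 2 and 1 among 20 genes lie near those shares, as do those of the lists that follow, apart from the CCT subunits with 2 of 8 higher. Those higher were Hspa13 (0.49 ± 0.19), a microsomal HSP70, and the mitochondrial J-protein gene Dnaja3 (0.60 ± 0.26). The lower one was Sdf2l1 (-0.98 ± 0.41), whose product acts in the endoplasmic reticulum, while Dnajc21 stood at 0.51 ± 0.23.

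The CCT chaperonin, which folds actin and tubulin, was higher for 6 of 8 subunits with a median of 0.087. Cct3 read 17859, 9206 and 8874 in the rotated samples, against 7404, 6402 and 6676 in the static samples, at 0.60 ± 0.23. Cct4 read 18447, 10612 and 7249.5 in the rotated samples, against 6662, 7102 and 5944 in the static samples, at 0.65 ± 0.25. Both separated the groups and were the subunits with an unadjusted p under 0.05, with rotated 1 well above the other rotated arrays, while Cct6a stood at 0.28 ± 0.17 and Cct8 at -0.22 ± 0.18. Prefoldin, which delivers clients to CCT, was higher for 4 of 6 subunits (median 0.070), with 0 at an unadjusted p under 0.05 in limma. Pfdn2 stood at -0.50 ± 0.30, Pfdn5 at -0.29 ± 0.23, Pfdn1 at 0.27 ± 0.24 and Pfdn6 at 0.15 ± 0.20.

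Chaperones of the endoplasmic reticulum were higher for 8 of 14 genes, with a median of 0.0068 and 0 at an unadjusted p under 0.05 in limma. The disulfide isomerase gene Pdia3 stood at -0.40 ± 0.21, the J-protein gene Dnajb9 at 0.31 ± 0.19, Creld2 at 0.32 ± 0.21 and Hspa5, the HSP70 of this compartment, at 0.30 ± 0.25. Further partners of HSP90 were higher for 8 of 12 tested genes (median 0.16). Unc45a, a myosin chaperone, stood at 1.07 ± 0.36 as the gene with an unadjusted p under 0.05. Stub1, the ubiquitin ligase CHIP, stood at -0.51 ± 0.25, Sugt1 at 0.36 ± 0.18 and the mitochondrial import receptor gene Tomm70a at 0.48 ± 0.28.

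A list of further genes linked to heat and stress was higher for 8 of 11 tested genes (median 0.11), with 1 at an unadjusted p under 0.05. This was Tfrc, the transferrin receptor of iron uptake, which read 5648, 4403 and 4984 in the rotated samples, against 2834.5, 1342 and 2012 in the static samples and stood at 1.27 ± 0.28. Hspbap1 stood at 0.73 ± 0.37 and Hsbp1, whose product binds heat shock factor 1, at -0.59 ± 0.30. Serpinh1, the collagen chaperone HSP47, read 4173, 10299.9 and 9600.5 in the rotated samples, against 10097, 10977.5 and 10559 in the static samples and stood at -0.60 ± 0.32, with rotated 1 the lowest. On the normalised scale every rotated value lay below the static ones, while in the deposited intensities rotated 2 exceeded static 1.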

How the data were processed

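RNA of 6 samples, 3 rotated and 3 static, was measured on 1-colour Affymetrix mouse arrays. The deposited intensity values are probe set summaries on a linear scale that share 1 trimmed mean (the mean without the outer 2% at each end) over the arrays; the summary software is not given in the sources used here. From these, 64 control probe sets were removed, values plus an offset of 16.6 (their 20th percentile) were taken to log2 and quantile normalised, and probe sets with a mean under the 40th percentile (5.96) were left out. Differences of low probe sets are understated by the offset. Group alone was fitted to all 27022 tested probe sets with the R package limma (version 3.58.1, R 4.3.3), using a moderated test with intensity trend and Benjamini-Hochberg adjustment at 0.05, after the code was tested on simulated data. Errors are limma's moderated standard errors, and the number of arrays limits the precision.

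Names of probe sets come from the annotation of the array platform, brought up to date through Entrez IDs with RefSeq (GRCm38.p6): 34945 had 1 symbol, 932 several and 9160 none. The probe set with the highest mean stands for its gene. Values on every array were given for the 12 members with the smallest p and for Hspa8, Hsp90aa1, Hspd1 and Hsf2, and up to 4 genes with the smallest p were named from each other list. Array values of Hspa4, Hspa2, Bag3, Cryab, Hspa9, Chordc1, Stip1, Dnaja1 and Dnajb6, and of probe sets other than the brightest, were chosen after their values were seen, as were those of Cct3, Cct4, Tfrc and Serpinh1 among the listed genes. The members and lists were chosen with earlier results of these data known.

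Replicate numbers come from the titles. Deviations from the group means correlated at 0.196, 0.313 and 0.334 between rotated and static samples of the same number, and at -0.186 to -0.0941 between samples of different number. The labels do not say what the numbers mean, so the main fit did not pair the samples. Because samples of the same number were more alike, a fit with the number as a block was run beside it.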

Additional observations from a re-analysis of the deposited data

How the results depend on the processing

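Over 19 alternatives of scaling, offset, filter, variance model, covariate, block, probe set rule and left-out samples, 0 chaperone probe sets had an adjusted p under 0.05 in limma. Of the 35 genes tested under all of them, 20 kept their direction; Hsf2 and Hspb2 were not tested under the stricter filter, and the mean over probe sets gives no count of probe sets. Among all tested probe sets, array weights called 22 and the replicate block 2, against 0 without them; the block changed no chaperone call. The chaperone median, 0.28, was 0.467 with median centring, 0.177 with array weights and 0.191 without rotated 1 and static 1, and 0.187 to 0.372 with each sample left out in turn; the cause was not tested. The count of chaperone genes higher was 25 to 28 with each sample left out, against 28. The count of chaperone probe sets at an unadjusted p under 0.05 and higher, 20, was 12 with the actin ratio as covariate and 16 to 24 with each sample left out; it was added after seeing the data. Directions turned for genes near 0 and also for others further from it. With the actin covariate these included Hspa2, Hspa4, Cacybp, Cdc37 and Chordc1, and with array weights Hspbp1, Fkbp4 and Hspa9. As deposited, Hspb2 was -0.113. With median centring Hspa14 was 0.123, Dnajb4 0.030, Dnajb6 0.131 and Dnajc7 0.0877. With array weights Hspa14 was 0.00642, Hspb2 -0.00689, Hspa9 -0.340, Dnajb4 0.177, Dnajc7 0.00544, Hspbp1 -0.114, Stip1 -0.105 and Fkbp4 -0.034. With the actin covariate Hspa2 was 0.101, Hspa4 -0.133, Hspa9 -0.137, Dnajc7 0.0288, Bag3 -0.0321, Cacybp -0.0299, Cdc37 0.0643 and Chordc1 -0.0322. Without both samples numbered 1 Hspa14 was 0.021, Hspb2 -0.181, Cryab -0.249 and Bag3 -0.193. With the mean over a gene's probe sets Hspa14 was 0.217 and Cryab -0.458. With each sample left out in turn the ranges were -0.000861 to 0.513 for Hspa4, -0.354 to 0.644 for Hspa9, -0.550 to 0.432 for Hspb2, -0.253 to 0.671 for Cryab, -0.124 to 0.276 for Bag3, -0.310 to 0.185 for Dnajb4, -0.117 to 0.144 for Stip1 and -0.0926 to 0.0471 for Hspa14. Probe sets near background have the least certain values, Hsf2 and Hspb2 among them.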

Other observations

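The 6 chaperone probe sets left out as dim belong to Hspa14, Hspa4, Hsp90aa1, Dnajb5, Hsf2 and Cryab, all of which have a brighter tested one. The dim probe set of Hsp90aa1 read 80.8, 67.4 and 54.2 in the rotated samples, against 21.2, 26.7 and 25.2 in the static samples, the only one of the 6 in which all rotated values lay above all static values. That of Hsf2 read 12.3, 12.5 and 4.3 in the rotated samples, against 4.9, 16.9 and 28.9 in the static samples, and overlapped. In the dim Cryab probe set each rotated sample lay below the static sample of the same number on the normalised scale, with 41.3, 19.0 and 32.3 in the rotated samples, against 105, 23.9 and 39.6 in the static samples.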
